A study of Mus musculus with 6 samples.

Results

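The 8 genes described here encode the 7SK particle and the kinase it holds inactive: Rn7sk, Hexim1, Hexim2, Larp7, Mepce, Cdk9, Ccnt1 and Ccnt2. They were chosen by gene symbol, were 8 of the 55487 genes in the table, and all 8 passed the filter on low values, a mean of 3 or more, which left 18766 genes to test. The data were total RNA sequencing of 6 libraries from mouse bone marrow cells positive for Kit, 3 carrying a lentivirus that overexpresses wild type MLLT3 (WT) and 3 carrying one that overexpresses the MLLT3 mutant K63E K67E (DM). After sorting, the cells of both groups were kept in methylcellulose for 8 days. The medium held, among other factors, Flt3L at 10 ng/mL, EPO, SCF, GM-CSF, IL-3, IL-6 and IL-11 at 20 ng/mL each, gentamycin, and 4-hydroxytamoxifen at 200 nM, which per the labels induced deletion of the endogenous Mllt3 gene, so that both groups were exposed to that deletion and to a vector. The sex, age and strain of the mice, the recombinase and the promoter of the vector are not given in the sources used here, and the labels do not say whether replicates came from separate animals or cultures, so p-values measure only the spread between these libraries. All 6 libraries belong to batch 1.

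P-TEFb is the kinase CDK9 bound to cyclin T1 or T2, and it releases paused RNA polymerase II into elongation by phosphorylating the polymerase and pausing factors. A large part of it is kept inactive in a particle built on 7SK, an abundant noncoding RNA made by RNA polymerase III. In that particle HEXIM1 or HEXIM2 binds the RNA and inhibits CDK9, MEPCE caps the 5′ end of the RNA, and LARP7 binds its 3′ end and keeps it stable. The title of the series describes the YEATS domain of MLLT3 as a reader of histone marks and of 7SK, and the comparison of DM with WT bears on whether the RNA levels of the particle differ when that domain carries the substitutions.

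The table gives regularized log values, called rlog, on a log2 scale, normalized for library size and pulled toward each gene's mean, most strongly for genes with low values. A change is the mean in DM minus the mean in WT, tested with limma over all 18766 genes, and called where the Benjamini-Hochberg adjusted p was under 0.05. The number of reads per library is unknown, since the table holds no counts, and the library medians over the tested genes lay between 8.03 and 8.11. Mllt3, deleted and supplied by the vector in both groups, averaged 12.64 ± 0.216 (SD, n = 3) in WT cells and 12.16 ± 0.249 in DM cells. It was called lower in DM (-0.48, limma adjusted p 0.0448), a call lost in 7 of 13 alternatives. Its groups overlapped, with 12.44 in both WT replicate 3 and DM replicate 1. The groups may thus differ in Mllt3 RNA as well as in the substitutions, and the part of either in the values of the 8 genes was not tested. Kit had values from 14.29 to 14.9 in the 6 libraries, and its groups overlapped.

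The RNA itself is shown first, because the particle is built on it and because its sequence bears on how its reads can be counted. Rn7sk (ENSMUSG00000065037.1; chromosome 9, 78175303 to 78175633, minus strand, a single exon in GENCODE M21 on GRCm38, the build also called mm10) is 331 bases long. Capitals mark GATC, the DNA spelling of the GAUC motif whose repeats in the 5′ hairpin are known to bind HEXIM proteins. Bases 1 to 241 stand here, and the last 90 follow below, where they are set beside those of a copy.
Rn7sk, bases 1 to 241: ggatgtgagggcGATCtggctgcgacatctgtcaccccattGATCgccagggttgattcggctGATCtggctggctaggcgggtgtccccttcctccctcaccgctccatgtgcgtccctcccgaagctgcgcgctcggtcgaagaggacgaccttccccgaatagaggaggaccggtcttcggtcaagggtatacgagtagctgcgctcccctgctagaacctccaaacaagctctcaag
GATC reads the same on both strands and occurred 3 times, at bases 13, 42 and 64 counted from the 5′ end. Of the first 331 bases of 129282 GENCODE M21 transcripts of at least that length, 61.9% held GATC and 7.99% held it 3 times or more. A match is a description of these letters and not evidence of binding.

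Copies of 7SK lie elsewhere in the mouse genome. In GENCODE M21, transcripts of 30 other genes aligned to Rn7sk over at least 200 bases with at least 80% identity. Gm24447 (chromosome 15, 93234363 to 93234700, plus strand) is identical to Rn7sk over bases 1 to 241, and the sequences part from base 242 on, as the 2 remaining stretches show.
Rn7sk, from base 242: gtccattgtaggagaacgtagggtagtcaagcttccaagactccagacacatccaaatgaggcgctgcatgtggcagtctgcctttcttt
Gm24447, from base 242: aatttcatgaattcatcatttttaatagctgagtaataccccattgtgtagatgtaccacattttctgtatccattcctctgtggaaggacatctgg
The Rn7sk stretch ends in the U-rich 3′ end that LARP7 is known to bind. Of the 30 copies, 1 (Gm23037) aligned past base 260 of Rn7sk, so the last part of the RNA is the part that sets it apart from most copies. A read that lies within bases 1 to 241 cannot be assigned to Rn7sk or Gm24447 by its sequence, and how such reads were counted is not given in the sources used here.

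The copies were listed far below Rn7sk. Gm26315, which differs from Rn7sk at 1 of 238 aligned bases, had the highest mean of the copies, 4.75, followed by Gm24447 at 4.4 and Gm24146 at 3.78. The other 27 copies had means under 3 and were not tested. On the linear scale the value of Rn7sk exceeded the sum of all 30 copies by 10.21 to 10.73 on the log2 scale in the 6 libraries. None of the 3 tested copies was called (limma), and their changes were -0.03 for Gm26315, -0.12 for Gm24447 and 0.04 for Gm24146. Of these 3, the groups did not overlap for Gm24447 (unadjusted p 0.0575, adjusted p 0.187).

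**Figure D1:**
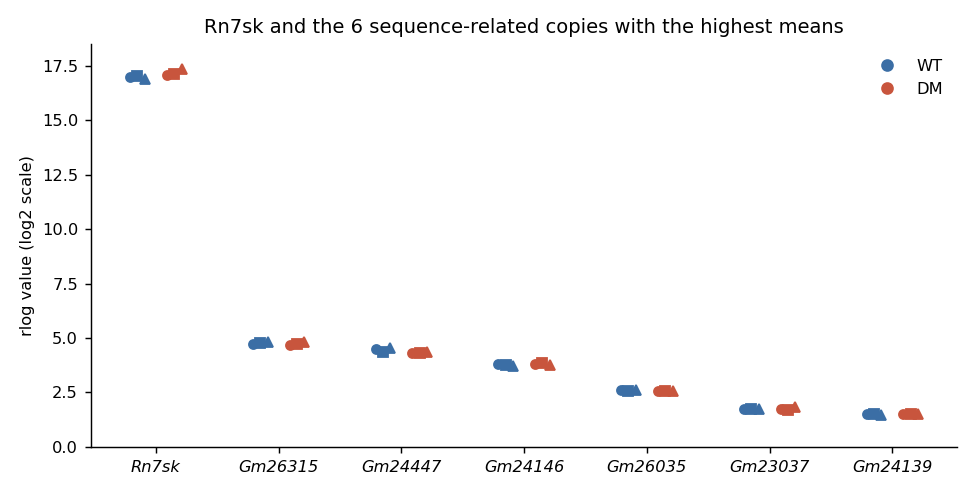
Rlog values (log2 scale, vertical axis) of Rn7sk and of the 6 related copies with the highest means, with 1 point per library, WT in blue and DM in red, and the marker shape for the replicate number. Rn7sk lies between 16.87 and 17.36, while the highest copy, Gm26315, has a mean of 4.75.

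None of the 8 genes was called between DM and WT. With limma, 13.9% of all tested genes were called, 9.2% as higher and 4.71% as lower in DM, and the smallest adjusted p among the 8 was 0.113. At an unadjusted p under 0.05 there was 1 of the 8, Cdk9, against 28.9% of all tested genes. For 3 of the 8 genes (37.5%) the groups did not overlap, against 35.8% of all tested genes, so the share among the 8 was near the background. These were 2 higher in DM, against 21.5% of all tested genes, and 1 lower, against 14.3%. At the level of most of the 8 genes the share of all tested genes without overlap was higher, 45.9% (mean from 9 to below 12) or 51.5% (12 or more). The absolute change had a median of 0.1 over the 8 genes and of 0.1 over all tested genes, and the largest among the 8 was 0.2. The median change was 0.07 over the 8 and 0.01 over all tested genes.

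**Figure D2:**
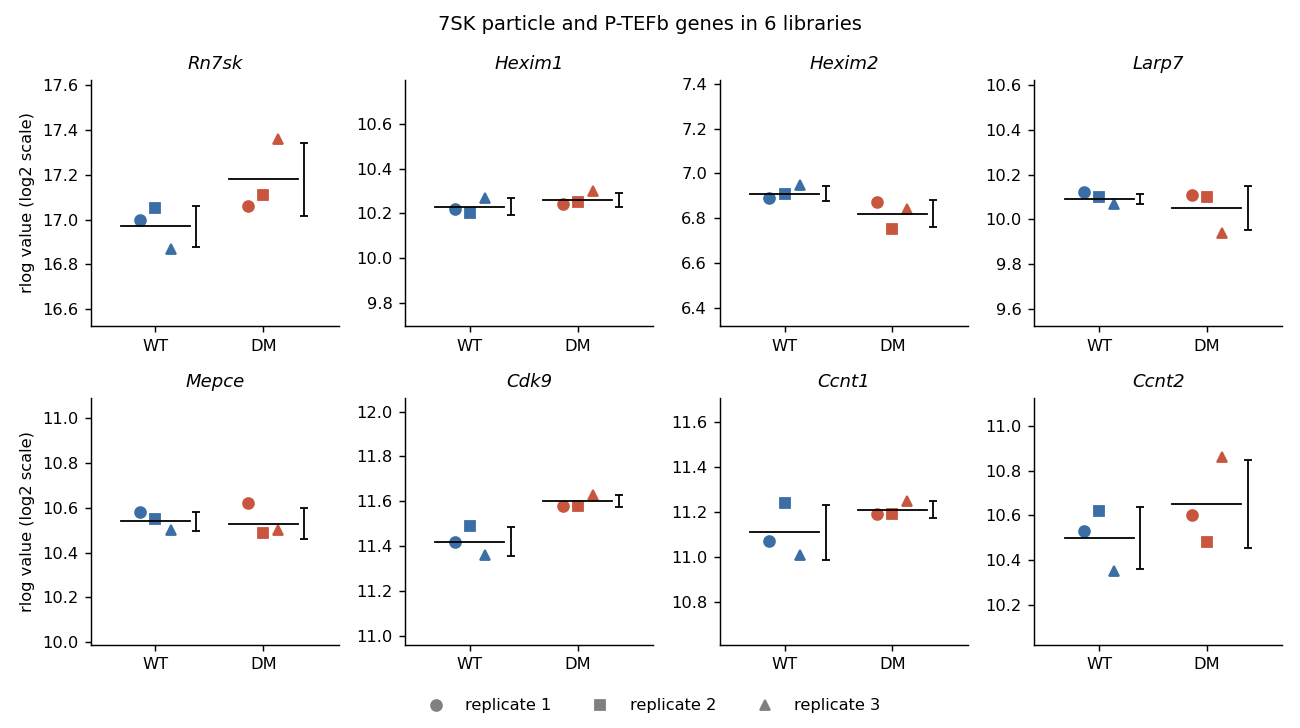
Rlog values (log2 scale) of each gene by group, with 1 point per library shaped by replicate number, a line at the group mean and a bar of ± 1 SD (n = 3). Every panel spans 1.1 log2 units on its own range, and the groups are apart for Rn7sk, Hexim2 and Cdk9 only.

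Only 11 genes of the table had a higher mean than Rn7sk. By replicate number, its values were 17, 17.05 and 16.87 in WT cells and 17.06, 17.11 and 17.36 in DM cells. The highest WT value and the lowest DM value were 0.0037 apart, and DM replicate 3 stood above the other 5 libraries. It averaged 16.97 ± 0.0915 (SD, n = 3) in WT cells and 17.18 ± 0.164 in DM cells, a change of 0.2 (SE 0.121, 95% interval -0.07 to 0.47, limma adjusted p 0.289). As a fold, the interval ran from 0.955 to 1.39. The change was 0.11 without DM replicate 3 and 0.03 after quantile normalization. Taken back to the linear scale, Rn7sk held from 0.38% to 0.399% of the sum of all values in WT and 0.375%, 0.386% and 0.476% in DM, so that on this measure the groups overlapped. These sums contain a few very abundant transcripts, and the libraries were depleted of abundant RNA during preparation.

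HEXIM1 and HEXIM2 are related proteins that inhibit CDK9 when bound to 7SK, and their genes are neighbours, with 12704 bases from the end of Hexim1 to the start of Hexim2 on the plus strand of chromosome 11. Hexim1 (ENSMUSG00000048878.6; 103116231 to 103119725, a single exon) had values of 10.22, 10.2 and 10.27 in WT cells and 10.24, 10.25 and 10.3 in DM cells. The groups overlapped, and all 6 libraries lay within 0.1 of each other. Its change was 0.03 (SE 0.0622, 95% interval -0.11 to 0.17, limma adjusted p 0.772), which as a fold is 0.928 to 1.12. The sign of this change turned with the scaling, to -0.04 after quantile normalization. Among the 8 genes the interval of Hexim1 was the narrowest. HEXIM1 is known as a gene whose RNA rises when P-TEFb is released from the particle by drugs, and such release was not tested here.

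Hexim2 (ENSMUSG00000043372.12; 103132429 to 103139876) was the least abundant of the 8. Its values were 6.89, 6.91 and 6.95 in WT cells and 6.87, 6.75 and 6.84 in DM cells, and every DM library lay below every WT library, with a gap of 0.0155. The change was -0.09 (SE 0.0673, 95% interval -0.24 to 0.06, limma adjusted p 0.371). The paralogs were also compared within each library. Hexim1 exceeded Hexim2 by 3.34, 3.29 and 3.33 in WT and by 3.37, 3.49 and 3.46 in DM. The groups did not overlap, and the mean difference was 3.32 ± 0.023 (SD, n = 3) in WT and 3.44 ± 0.0616 in DM, 0.13 larger in DM. A two-sided exact permutation test gave p 0.1, the smallest that 3 against 3 libraries allow, and an adjusted p of 0.3 over the 3 pairs of genes compared in this way. After quantile normalization, an alternative chosen after seeing the data for these pairs, the difference was 0.03 larger in DM (exact permutation p 0.7) and the groups overlapped.

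Larp7 and Mepce encode the proteins that stay on 7SK and protect its ends. Larp7 (ENSMUSG00000027968.11; chromosome 3, 127536714 to 127553349, minus strand) had values of 10.12, 10.1 and 10.07 in WT cells and 10.11, 10.1 and 9.94 in DM cells. DM replicate 3, the library with the highest Rn7sk value, had the lowest Larp7 value, and the other 5 libraries lay within 0.05 of each other. The change of Larp7 was -0.05 (SE 0.0702, 95% interval -0.2 to 0.11, limma adjusted p 0.687), and it was 0.01 without DM replicate 3. MicroRNA genes of the Mir302 and Mir367 cluster lie on the opposite strand within Larp7, and the table lists 3 of them at 0 and the others below 0 in all 6 libraries.

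Mepce (ENSMUSG00000029726.16; chromosome 5, 137781906 to 137787655, minus strand) had values of 10.58, 10.55 and 10.5 in WT cells and 10.62, 10.49 and 10.5 in DM cells. The groups overlapped, and the highest and the lowest value were both in DM. Its change was -0.01 (SE 0.0668, 95% interval -0.16 to 0.14, limma adjusted p 0.948), the smallest of the 8, and its sign turned when WT replicate 1, DM replicate 2 or DM replicate 3 was left out (0.01, 0.02 and 0.01). Larp7 minus Mepce was -0.45 ± 0.0195 (SD, n = 3) in WT and -0.49 ± 0.0883 in DM (two-sided exact permutation p 0.5, adjusted over the 3 pairs 0.75). The groups overlapped, and without DM replicate 3 the difference between them was 0.

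Cdk9, the kinase subunit of P-TEFb, had the smallest p of the 8 genes. Cdk9 (ENSMUSG00000009555.16; chromosome 2, 32705784 to 32713076, minus strand) had values of 11.42, 11.49 and 11.36 in WT cells and 11.58, 11.58 and 11.63 in DM cells. Every DM library lay above every WT library, with a gap of 0.0894, and the DM libraries lay closer together than the WT libraries. It averaged 11.42 ± 0.0659 (SD, n = 3) in WT cells and 11.6 ± 0.0274 in DM cells, a change of 0.18 (SE 0.0661, 95% interval 0.03 to 0.32, unadjusted p 0.0248, limma adjusted p 0.113). As a fold, the change was 1.13 with an interval from 1.02 to 1.25. It was 0.06 after quantile normalization (adjusted p 0.399), and over 13 alternatives the adjusted p ran from 0.059 to 0.399. The table lists Mir2861 and Mir3960, which lie within Cdk9 on the same strand, at 0 in all 6 libraries.

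Cyclin T1 and cyclin T2 are the alternative cyclin subunits of P-TEFb. Ccnt1 (ENSMUSG00000011960.12; chromosome 15, 98538689 to 98570923, minus strand) had values of 11.07, 11.24 and 11.01 in WT cells and 11.19, 11.19 and 11.25 in DM cells. WT replicate 2 lay within the range of the DM libraries, and the other WT libraries below it. The change was 0.1 (SE 0.0766, 95% interval -0.07 to 0.27, limma adjusted p 0.402), 0.05 without WT replicate 3, 0.17 without WT replicate 2 and 0 after quantile normalization. The antisense gene 9330020H09Rik overlaps Ccnt1 and had values from 5.39 to 5.57, and since it is not given whether counting used strand, reads of the overlap cannot be told apart.

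Ccnt2 (ENSMUSG00000026349.14; chromosome 1, 127774164 to 127808061, plus strand) had values of 10.53, 10.62 and 10.35 in WT cells and 10.6, 10.48 and 10.86 in DM cells. The groups overlapped, WT replicate 3 was the lowest library and DM replicate 3 the highest. Its change was 0.15 (SE 0.107, 95% interval -0.09 to 0.39, limma adjusted p 0.373), and leaving out 1 library moved it to 0.04 (DM replicate 3), 0.07 (WT replicate 3) or 0.23 (DM replicate 2). Ccnt1 exceeded Ccnt2 by 0.61 ± 0.0568 (SD, n = 3) in WT and by 0.56 ± 0.161 in DM (two-sided exact permutation p 0.8, adjusted over the 3 pairs 0.8). This difference between the groups, -0.05, turned to 0.04 without DM replicate 3.

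The width of the intervals sets what these libraries could show. For 5 of the 8 genes, Hexim1, Hexim2, Larp7, Mepce and Ccnt1, the 95% interval of the change lay within 0.3 of 0 on the log2 scale, and the bound farthest from 0 was 0.47, for Rn7sk. Of the 8 genes 5 had a higher and 3 a lower mean in DM, and 51.6% of all tested genes had a higher one. A missed threshold does not show equal levels.

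**Figure D3:**
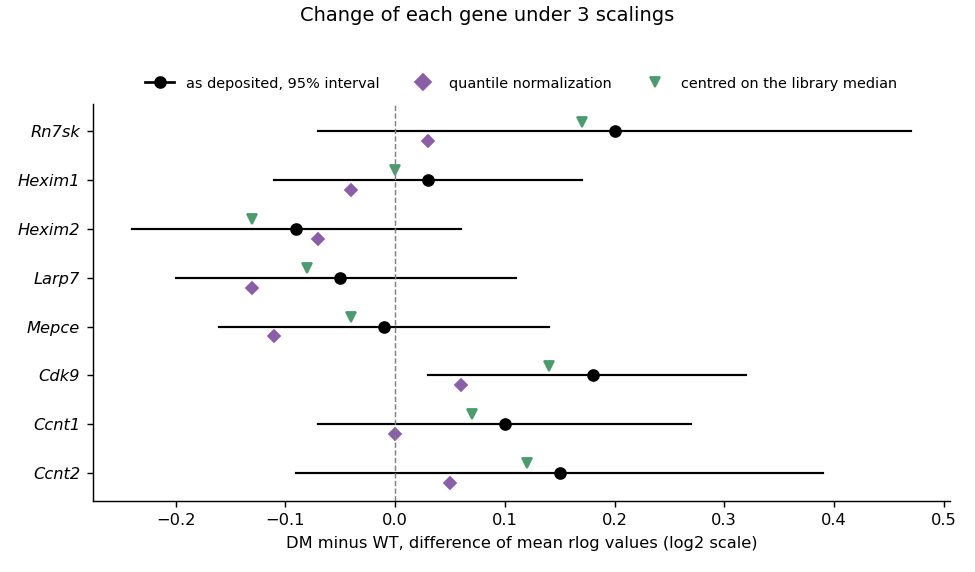
Change of each gene (DM minus WT, log2 scale, horizontal axis) with the 95% interval from limma on the values as deposited (black), and the change after quantile normalization (purple) and after centring each library on its median (green). Only the interval of Cdk9 (0.03 to 0.32) leaves out 0, and after quantile normalization its change is 0.06.

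Changes over all tested genes depended on the level of the gene. Among the 6216 tested genes with a mean from 9 to below 12, the range of Hexim1, Larp7, Mepce, Cdk9, Ccnt1 and Ccnt2, the median change was 0.1, 22% were called and the groups did not overlap for 45.9%. Among the 1585 tested genes with a mean of 12 or more, the range of Rn7sk, the median change was 0.13, 28.4% were called and the groups did not overlap for 51.5%. Among the 4176 with a mean from 6 to below 9, the range of Hexim2, the median was 0.03, 14.9% were called and the groups did not overlap for 35.3%. The 6789 with a mean below 6 held none of the 8 genes, and their median was -0.06 with 2.52% called. After quantile normalization the 4 medians lay between -0.01 and 0.02. The change of Cdk9 was 0.18 against the median of 0.1 at its level, that of Ccnt1 was 0.1, and that of Hexim1 was 0.03.

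Per kilobase of annotated exon, the RNA of the particle stood far above the messenger RNAs of its proteins. On the scale of rlog minus log2 of the exon length in kilobases, the mean over 6 libraries was 18.67 for Rn7sk, 9.3 for Cdk9, 8.83 for Larp7, 8.71 for Mepce, 8.44 for Hexim1, 7.96 for Ccnt1, 6.95 for Ccnt2 and 5.62 for Hexim2. Each gene lay above the next in all 6 libraries, and the ranges over the libraries overlapped for 1 neighbouring pair, Larp7 (8.69 to 8.87) and Mepce (8.66 to 8.79). The lengths are unions of all annotated exons, so a gene with long exons that these cells do not use is placed too low, and how well a 331-base RNA is captured beside longer ones was not tested.

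**Figure D4:**
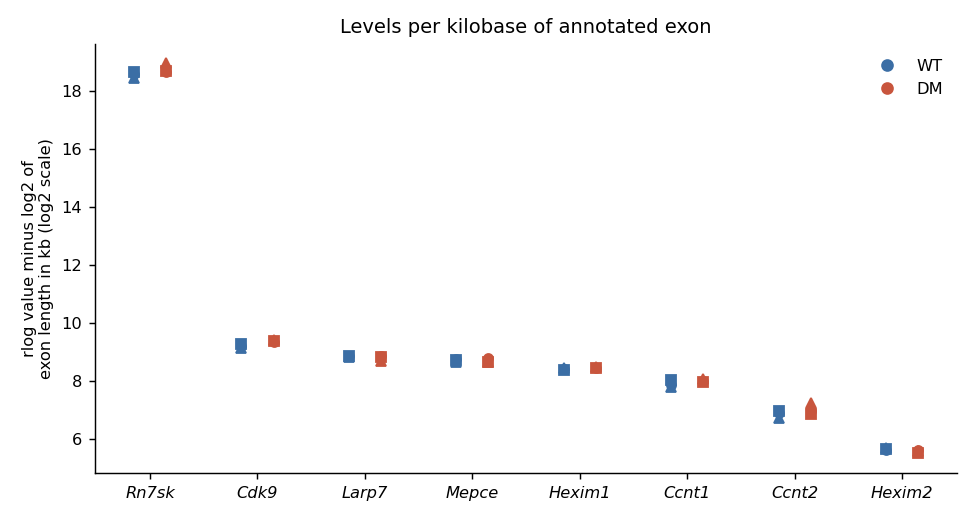
Level per kilobase of annotated exon (rlog value minus log2 of the exon length in kilobases, log2 scale) for each gene, with 1 point per library, WT in blue and DM in red. Rn7sk has a mean of 18.67, and the 7 coding genes range from 9.3 for Cdk9 to 5.62 for Hexim2.

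The order within the paralog pairs was the same in all 6 libraries. On the per-kilobase scale taken back to linear values, Hexim2 made up from 11.6% to 13.1% of the sum of Hexim1 and Hexim2, and Ccnt2 from 31.3% to 36.2% of the sum of Ccnt1 and Ccnt2. The sum of Hexim1 and Hexim2 relative to Cdk9 was -0.6, -0.69 and -0.48 in WT and -0.74, -0.76 and -0.75 in DM on the log2 scale. The groups did not overlap on this ratio of inhibitor to kinase RNA, and the DM libraries were nearly equal. Its mean was -0.59 ± 0.101 (SD, n = 3) in WT and -0.75 ± 0.00954 in DM, 0.16 lower in DM, and 0.11 lower after quantile normalization, likewise tried after seeing the data. No test is given for this ratio, since it combines genes already described. Groups did not overlap for 35.8% of all tested genes, and that share was not computed for ratios. The ratio of both cyclins to Cdk9 was -0.73 ± 0.0602 in WT and -0.79 ± 0.0655 in DM, and that of Rn7sk to Cdk9 was 9.35 ± 0.0315 and 9.38 ± 0.136, with overlapping groups in both. Rn7sk relative to the sum of Hexim1 and Hexim2 was 9.94 ± 0.128 in WT and 10.13 ± 0.137 in DM. Relative to Larp7 it was 9.72 ± 0.0738 in WT and 9.97 ± 0.262 in DM, and the groups of these ratios overlapped too.

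Other genes of the pathway were taken from 8 lists by role, of which 80 of 85 genes were tested. Over all tested genes 9 of these 80 (11.2%) were called, 8 higher and 1 lower in DM, and their median change was 0.04. Of all tested genes 13.9% were called. Most of the 80 had a mean of 9 or more, however. At that level the share of all tested genes called was 22% (mean from 9 to below 12) or 28.4% (12 or more). The 1 lower gene was Mllt3, which the vector supplied in both groups. In 4 of the lists no gene was called.

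Among proteins other than LARP7, MEPCE and HEXIM known to bind 7SK, 0 of 7 were called and the median change was -0.06. The smallest p was that of Srsf2 (-0.18, unadjusted p 0.0382, limma adjusted p 0.147), a splicing factor also known to act in pause release. Srsf2 passed the threshold after quantile normalization (-0.31, adjusted p 0.00545) and after centring on the median (-0.22, adjusted p 0.0438), and after quantile normalization 4 of the 7 were called. Among factors that recruit P-TEFb or release it from the particle, 0 of 12 were called, with a median of 0.01. Brd2, a bromodomain protein that binds acetylated histones, had the smallest p (0.21, unadjusted p 0.0108, limma adjusted p 0.0663). Its values ran from 12.99 to 13.07 in WT and from 13.25 to 13.26 in DM. The adjusted p of Brd2 was 0.0298 without the mean-variance trend of limma. After quantile normalization its change was 0.08 (limma adjusted p 0.357). Whichever library was left out, its adjusted p stayed above the threshold, from 0.0573 to 0.186.

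The partners of P-TEFb in the super elongation complex, the assembly to which MLLT3 belongs, had 4 of 8 tested genes called. Ell2 (0.36, limma adjusted p 0.0223), Eaf1 (0.33, 0.0356) and Ell (0.26, 0.0427) were higher, and Mllt3 itself was lower (-0.48, 0.0448). Mllt3 was deleted and supplied by the vector in both groups, so its call is set apart from the others. ELL and ELL2 speed up elongation, and EAF1 is an ELL-associated factor. Ell2 lost its call in 3 of 13 alternatives (without WT replicate 1, DM replicate 2 or DM replicate 3, adjusted p 0.0996, 0.09 and 0.0773), and Eaf1, Ell and Mllt3 in 7 each. With WT replicate 1, DM replicate 2 or DM replicate 3 left out, 0 of these 8 genes were called. With WT replicate 3 or DM replicate 1 left out, Eaf1 (adjusted p 0.0797 and 0.123) and Ell (0.0857 and 0.0772) lost their calls. Mllt3 also lost its call with WT replicate 2 left out (adjusted p 0.0606). With all 6 libraries kept, calls were lost with no filter on low values (adjusted p 0.0648 for Eaf1, 0.123 for Ell and 0.0651 for Mllt3) and after quantile normalization (0.0668 for Eaf1 and 0.0861 for Ell). The adjusted p of Mllt3 was 0.0542 without the mean-variance trend of limma and 0.0504 with a robust prior. Among the substrates of P-TEFb and pausing factors 0 of 8 were called, with a median of 0.03, and Polr2a, the largest subunit of RNA polymerase II, had the smallest p (0.22, unadjusted p 0.0268, adjusted p 0.119). Polr2a was past the threshold without WT replicate 2 (0.29, adjusted p 0.03). With any other library left out, its adjusted p ran from 0.192 to 0.282. After quantile normalization the change of Polr2a was 0.06 (limma adjusted p 0.504).

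Among other kinases and cyclins of transcription, 2 of 13 were called, Cdk10 (0.27, limma adjusted p 0.0471) and Cdk11b (0.23, 0.0474), both higher in DM, and the median was 0.06. Each lost its call in 8 of 13 alternatives. Leaving out 1 library took the adjusted p of Cdk10 to 0.174 (WT replicate 1), 0.0965 (WT replicate 3), 0.118 (DM replicate 1), 0.0855 (DM replicate 2) and 0.146 (DM replicate 3), and that of Cdk11b to between 0.0603 and 0.146 whichever library was left out. With all 6 libraries both calls were lost with no filter on low values (adjusted p 0.105 and 0.145) and after quantile normalization (0.0556 and 0.193), and that of Cdk10 after centring on the median (0.0504).

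Genes for the synthesis of 7SK by RNA polymerase III had 2 of 22 called, both higher, with a median of 0.07. Snapc5, a subunit of the complex that recognizes the promoters of 7SK and small nuclear RNA genes, had values of 8.88, 9.02 and 8.94 in WT cells and 9.23, 9.43 and 9.21 in DM cells (0.34, SE 0.08, limma adjusted p 0.0216). Polr3d, a subunit of RNA polymerase III, had values of 9.08, 9.16 and 9.13 in WT cells and 9.43, 9.41 and 9.34 in DM cells (0.27, SE 0.0648, adjusted p 0.0215). For both genes every DM library lay above every WT library. Snapc5 lost its call without WT replicate 1 (adjusted p 0.0923) or DM replicate 2 (0.0873), and Polr3d without WT replicate 1 (0.0995), DM replicate 1 (0.0758) or DM replicate 2 (0.0855), and also with no filter on low values (0.0648). The other 4 SNAPc genes, Snapc1 to Snapc4, ranged from -0.05 to 0.16, with none called.

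Relatives of Larp7 and Mepce had 0 of 5 tested genes called, with the smallest p in Larp1b (-0.18, unadjusted p 0.0203, limma adjusted p 0.0995), which was past the threshold after quantile normalization (-0.24, adjusted p 0.0203) and after centring on the median (-0.21, 0.0334). Of the other noncoding RNAs made by RNA polymerase III, 1 of 5 tested was called, the vault RNA Vaultrc5, with values of 9, 9.1 and 8.97 in WT cells and 9.44, 9.9 and 9.45 in DM cells (0.57, SE 0.118, adjusted p 0.0124). Vaultrc5 kept its call in all 13 alternatives, with adjusted p from 0.00235 to 0.0445. The signal recognition particle RNAs Rn7s1 and Rn7s2, the Y RNAs and the RNAs of RNase P and RNase MRP had means below 5, and 1 of the 2 entries named Rmrp was listed at 0, although every cell uses these RNAs, so Rn7sk is not compared with them.

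**Figure D5:**
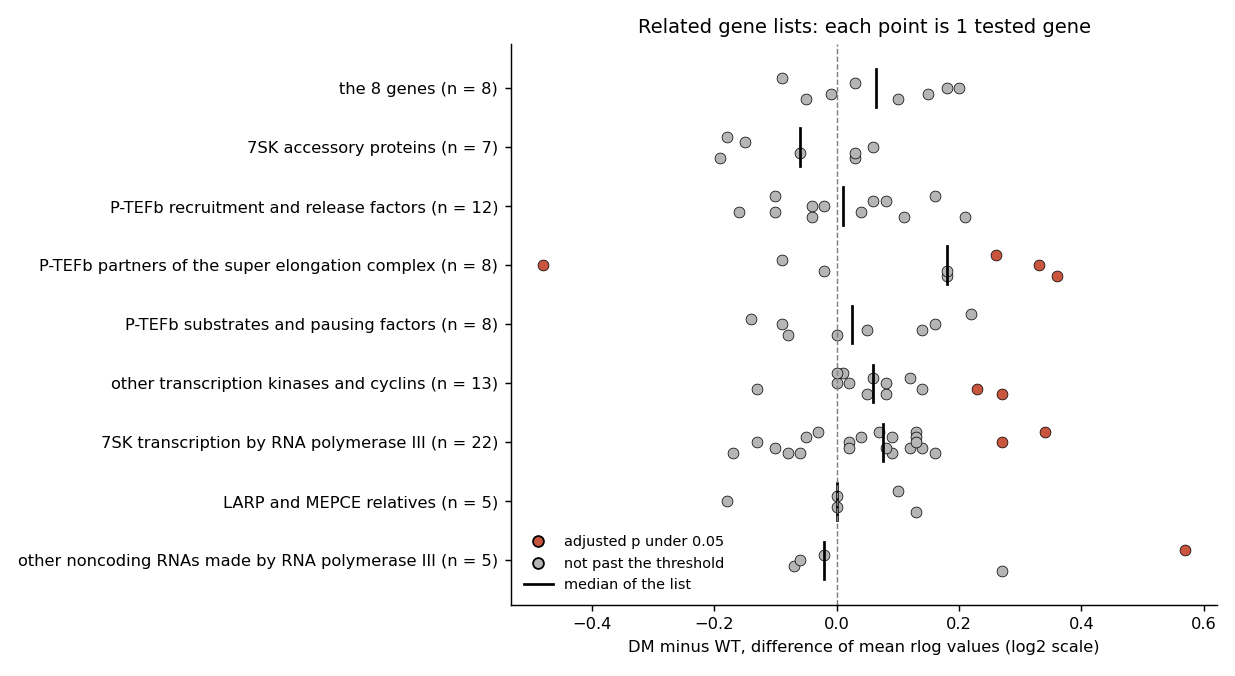
Change of each tested gene (DM minus WT, log2 scale, horizontal axis) in the 8 genes and in the 8 related lists, with called genes in red, others in grey and the median of each list as a black line. None of the 8 genes is called, and the largest change in the plot is 0.57, for Vaultrc5.

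The neutrophil, monocyte and macrophage, and proliferation lists had median changes farther from 0 than the 8 genes (0.07), while several other marker lists did not. All 10 tested neutrophil markers were lower in DM by limma, with a median change of -1.64 and a summed level from 18.46 to 18.9 in WT and from 16.83 to 17.74 in DM. Of 9 tested monocyte and macrophage markers 8 were higher (median 0.73, summed level 18.22 to 18.93 in WT and 19.25 to 19.62 in DM), and of 10 proliferation genes 8 were lower (median -0.42, summed level 16.02 to 16.18 and 15.62 to 15.8). Of the stem and progenitor markers 4 of 9 were called, 2 in each direction (median -0.02). No mast cell and basophil or erythroid marker was called, of 8 and 7 tested (medians 0.06 and -0.2). Of 6 megakaryocyte markers 1 was higher (median 0.2). Of 3 tested lymphoid markers (median -0.07) Il7r was higher (0.79) and Nkg7 lower (-1.89). Il7r and Nkg7 are named after their values were seen. In bulk libraries, fewer cells of a type and less RNA per cell cannot be told apart, and whether either has a part in the values of the 8 genes was not tested.

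The genes whose pattern over the 6 libraries was most like that of 2 of the 8 were found by the root mean square difference of values centred on each gene's mean, among 11976 other genes with a mean of at least 6. Nearest to Rn7sk were Ifi211 (0.0168), Mthfsl (0.0291) and 2010315B03Rik (0.0351), against a median of 0.154 over all genes compared. In all 3, as in Rn7sk, DM replicate 3 was the highest library and WT replicate 3 the lowest, which follows largely from how they were chosen. Nearest to Hexim1 were Asb13 (0.0153), Ncs1 (0.0172) and 2810403D21Rik (0.0189), against a median of 0.117, and their values, like those of Hexim1, spanned little. With 6 libraries and this many genes, some close matches are to be found for any gene.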

How the data were processed

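The authors deposited 1 table of values on a log2 scale, taken here as regularized log (rlog) values because of its name and because its entries, between -1.97 and 21.88, are not whole numbers. The submitters' processing notes name cutadapt 2.6, STAR 2.7.3, DESeq2 1.30.0 and the build mm10. The counting tool, the use of strand and the annotation are not given in the sources used here. The 142699 lines were merged to 55487 genes, since repeated lines of a gene were identical, and 54435 genes (98.1%) matched GENCODE M21 by versioned identifier, which gave coordinates and exon lengths. No 2 libraries were identical.

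DM and WT were compared with limma 3.58.1 in R 4.3.3 (linear model, empirical Bayes with an intensity trend, prior degrees of freedom 5.82) on the values as deposited, without covariates, over 18766 genes whose mean was 3 or more. P-values were adjusted over all of these by the Benjamini-Hochberg method (threshold 0.05), and intervals are 95% intervals from the moderated fit. The test was run on simulated data with normal noise drawn independently for each gene. There, 184 of 200 changed genes and 8 unchanged ones were called. This does not cover noise shared by genes of a library, so it does not show how the test behaves on these data. Differences of 2 genes within a library were tested by exact permutation of the 20 assignments. Copies of 7SK were found with blastn 2.17.0, and values were plotted with matplotlib 3.10.9.

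Alternatives dropped the filter, raised it to a mean of 5, or dropped the trend. Others used a robust prior, quantile normalization, centring on the median or a replicate block, or left out 1 library at a time. The genes and lists were chosen with earlier results of these data known. Named from each list were up to 4 called genes with the largest changes, or else the gene with the smallest p, and the 3 genes most like Rn7sk and Hexim1. Count-based tests could not be run, since the table holds no counts.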

Additional observations from a re-analysis of the deposited data

How the results depend on the processing

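None of the 8 genes was called under any of the 13 alternatives, and over these 104 fits of single genes the smallest adjusted p was 0.059 (limma). The direction was kept in 98 of them. It turned for Hexim1 after quantile normalization (-0.04) and centring on the median (a change that rounds to 0), and with 1 library left out for Larp7 (-0.08 to 0.01, turning without DM replicate 3) and Mepce (-0.05 to 0.02, turning without WT replicate 1, DM replicate 2 or DM replicate 3). The change of Gm26315 turned after quantile normalization (0.04) and without DM replicate 1 (from -0.07 to 0.01 with 1 library left out). With 1 library left out, the difference between the groups ran from -0.12 to 0.04 for Ccnt1 minus Ccnt2, from -0.09 to 0 for Larp7 minus Mepce, both turning without DM replicate 3, and from 0.1 to 0.16 for Hexim1 minus Hexim2. After quantile normalization, added after seeing the data, these differences were -0.05, -0.02 and 0.03. The cause was not tested. Of all tested genes 2611 were called, and from 1119 (without DM replicate 2) to 3475 (without WT replicate 2) with 1 library left out. Leaving out WT replicate 1 gave 1185 and leaving out DM replicate 3 gave 1537. The number of the 8 genes with groups that did not overlap was 1 after quantile normalization. Called genes per list ranged over the alternatives from 0 to 4 for 7SK-binding proteins and for super elongation complex partners, 0 to 3 for 7SK synthesis, 0 to 2 for release factors and for other kinases, 0 to 1 for substrates and for relatives of Larp7 and Mepce, and 1 to 2 for other noncoding RNAs. With the replicate block 3742 genes were called and still none of the 8. The block also brought Brd2 (adjusted p 0.0214) and Polr2a (0.0306) past the threshold and changed the call of no other named gene. Deviations from the group means correlated by 0.491, 0.116 and 0.0412 between libraries with the same replicate number, so the numbers were not taken to pair the samples, and not every library correlated best with its own number. Depth is unknown, and rlog values understate the changes of genes with low values, such as the copies of 7SK.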
